A study of Homo sapiens with 22 samples.

Results

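The genes described here are 10 genes of the integrated stress response and the unfolded protein response: ATF4, DDIT3, TRIB3, ASNS, CHAC1, SESN2, HSPA5, XBP1, DDIT4 and PPP1R15A. They were taken by symbol, and DDIT4 is also a known glucocorticoid target. All 10 were among the 20668 gene symbols measured in each sample, and all 10 passed the filter on low values that left 12713 genes for testing. The cells were MDA-MB-231, a human triple-negative breast cancer line, and their RNA was sequenced in 5 groups of 2 biological replicates: vehicle, 100 nM dexamethasone (Dex) for 2 h, 100 nM Dex for 4 h, 10 μM compound A (CpdA) for 2 h and 10 μM CpdA for 4 h. Dex is a synthetic steroid agonist of the glucocorticoid receptor (GR), and CpdA is a nonsteroidal GR ligand. Before treatment, every culture, vehicle included, was kept for 3 days in phenol red-free medium whose serum was charcoal-stripped. The ligands were given at different doses, so a difference between Dex and CpdA is also a difference in dose, and all samples come from a single cell line. The labels give the vehicle samples no time point, and both were used as the reference at 2 h and at 4 h. The study's names for its data columns, however, call vehicle replicate 1 a 2 h control and vehicle replicate 2 a 4 h control. If so, they are not replicates of 1 condition, and time and replicate spread cannot be told apart between them. A fit with limma (a linear model fitted over all genes) was also made against the vehicle sample so named for the same time alone. Calls at an adjusted p under 0.05 then changed for TRIB3, ASNS and HSPA5 with CpdA at 2 h. Their log2 changes were 0.28, 0.17 and 0.29, in place of 0.34, 0.16 and 0.30 against both. With Dex at 4 h the calls changed for DDIT3, CHAC1 and XBP1. Here the log2 changes were -0.22, -0.22 and 0.21, in place of -0.25, -0.34 and 0.13. That the replicates are biological comes from the study's methods, and the labels do not say whether the cultures were separate. The comparisons ask which of these stress genes each ligand regulates, in which direction, and whether the ligands and the times differ.

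In the integrated stress response, kinases that sense unfolded protein, missing amino acids, haem deficiency or double-stranded RNA phosphorylate the translation factor eIF2. General translation then slows, while the mRNA of the transcription factor ATF4 is translated more. ATF4 induces genes for amino acid supply and redox balance, together with the transcription factor DDIT3 (CHOP) and inhibitors of its own pathway. The unfolded protein response of the endoplasmic reticulum (ER) feeds into this through the kinase PERK, encoded by EIF2AK3. Its other arms act through ATF6 and through IRE1, which splices XBP1 mRNA. Both arms induce chaperones such as HSPA5 and the machinery of ER-associated degradation (ERAD). The values below are mRNA levels, so translation of ATF4 and splicing of XBP1 were not measured.

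Levels are given as RPKM, reads per kilobase of transcript scaled to the number of mapped reads, and so can be set side by side between genes. Changes are differences in log2(RPKM + 0.1), with a standard error (SE) and a p-value from limma adjusted over all 12713 genes. A gene is called higher or lower where the adjusted p was under 0.05. The read depth worked out from the smallest steps in RPKM ran from about 51300000 to 62100000 mapped reads per sample, with the vehicle samples lowest. The lowest value of any of the 10 genes, 8.59 RPKM for SESN2, corresponds to 501 reads per kilobase, so counting error was 4.5% or less per kilobase. In markers of the line, VIM ran from 1267 to 1464 RPKM and CD44 from 119.7 to 182.4 RPKM, whereas ESR1 and PGR did not exceed 0.005 RPKM. ERBB2, at 15.9 to 21.6 RPKM, was not absent. Of the epithelial markers, CDH1 stayed at or below 0.465 RPKM, whereas EPCAM, at 8.02 to 10.6 RPKM, was not absent. Of the markers of other cell types, PTPRC of leukocytes and PECAM1 of endothelium stayed at or below 0.324 RPKM and COL1A1 of fibroblasts at or below 2.60 RPKM. The receptor gene NR3C1 ran from 9.96 to 25.5 RPKM.

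The promoters of the 10 genes differ in the response elements that they carry. RefSeq windows (build GRCh38.p14) from 250 bases before to 50 bases after each transcription start were searched on both strands for elements bound by the factors of these pathways. The composite element of C/EBP and ATF4, TGATGNAA, was present in 3.62% of 35116 windows, and among the 10 genes in ASNS and CHAC1. The ER stress response element, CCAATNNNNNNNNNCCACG, was present in 0.08% of the windows and among the 10 genes in HSPA5 and XBP1. Its last part alone, CCACG, occurs in 38.09% of the windows. The cAMP response element, TGACGTCA, which proteins of the ATF family bind, was present in 1.85% of the windows and among the 10 genes in PPP1R15A. The core of the unfolded protein response element, TGACGTGG (0.73% of windows), and the glucocorticoid response element ACANNNTGT (5.37%) had no match in the 10 windows. The stretches with a match are shown because they show which arm's element each of these genes holds. Each is written 5′ to 3′ on the gene's strand with the match in capitals, and the CHAC1 match reads TGATGNAA on the opposite strand.
ASNS: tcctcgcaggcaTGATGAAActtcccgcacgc
CHAC1: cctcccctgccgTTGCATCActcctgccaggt
HSPA5: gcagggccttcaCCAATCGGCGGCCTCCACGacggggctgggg
XBP1: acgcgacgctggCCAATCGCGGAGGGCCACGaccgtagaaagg
PPP1R15A: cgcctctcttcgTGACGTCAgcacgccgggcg

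All 5 stretches lie in the promoter, before the start of the annotated transcript. The ASNS stretch (chr7:97872457-97872488, minus strand) runs from 80 to 49 bases before the start and the CHAC1 stretch (chr15:40953250-40953281, plus strand) from 221 to 190 bases before it. The HSPA5 stretch (chr9:125241379-125241421, minus strand) runs from 78 to 36 bases before the start, and that of XBP1 (chr22:28800591-28800633, minus strand) from 64 to 22 bases before it. The PPP1R15A stretch (chr19:48872351-48872382, plus strand) runs from 70 to 39 bases before the start. A match describes these letters only, and no match says only that they are not in this window.

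The ligands moved these genes differently. With CpdA all 10 genes were upregulated at 2 h and at 4 h, by 1.11-fold to 3.64-fold at 2 h and by 1.5-fold to 2.42-fold at 4 h. With Dex DDIT4 alone of the 10 was upregulated, by 7.04-fold at 2 h and 6.45-fold at 4 h. DDIT3, CHAC1 and PPP1R15A were downregulated by Dex at both times and SESN2 at 2 h. ATF4, TRIB3, ASNS, HSPA5 and XBP1 were called with CpdA and not with Dex, except that under other scalings or samples ATF4 passed as lower with Dex at 4 h after quantile normalization (-0.10; adjusted p = 0.0436), and XBP1 as higher after median scaling (0.20; adjusted p = 0.036) and without vehicle replicate 1 (0.21; adjusted p = 0.034). In RNA from whole cultures, fewer cells expressing a gene and less RNA per cell cannot be told apart.

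**Figure D1:**
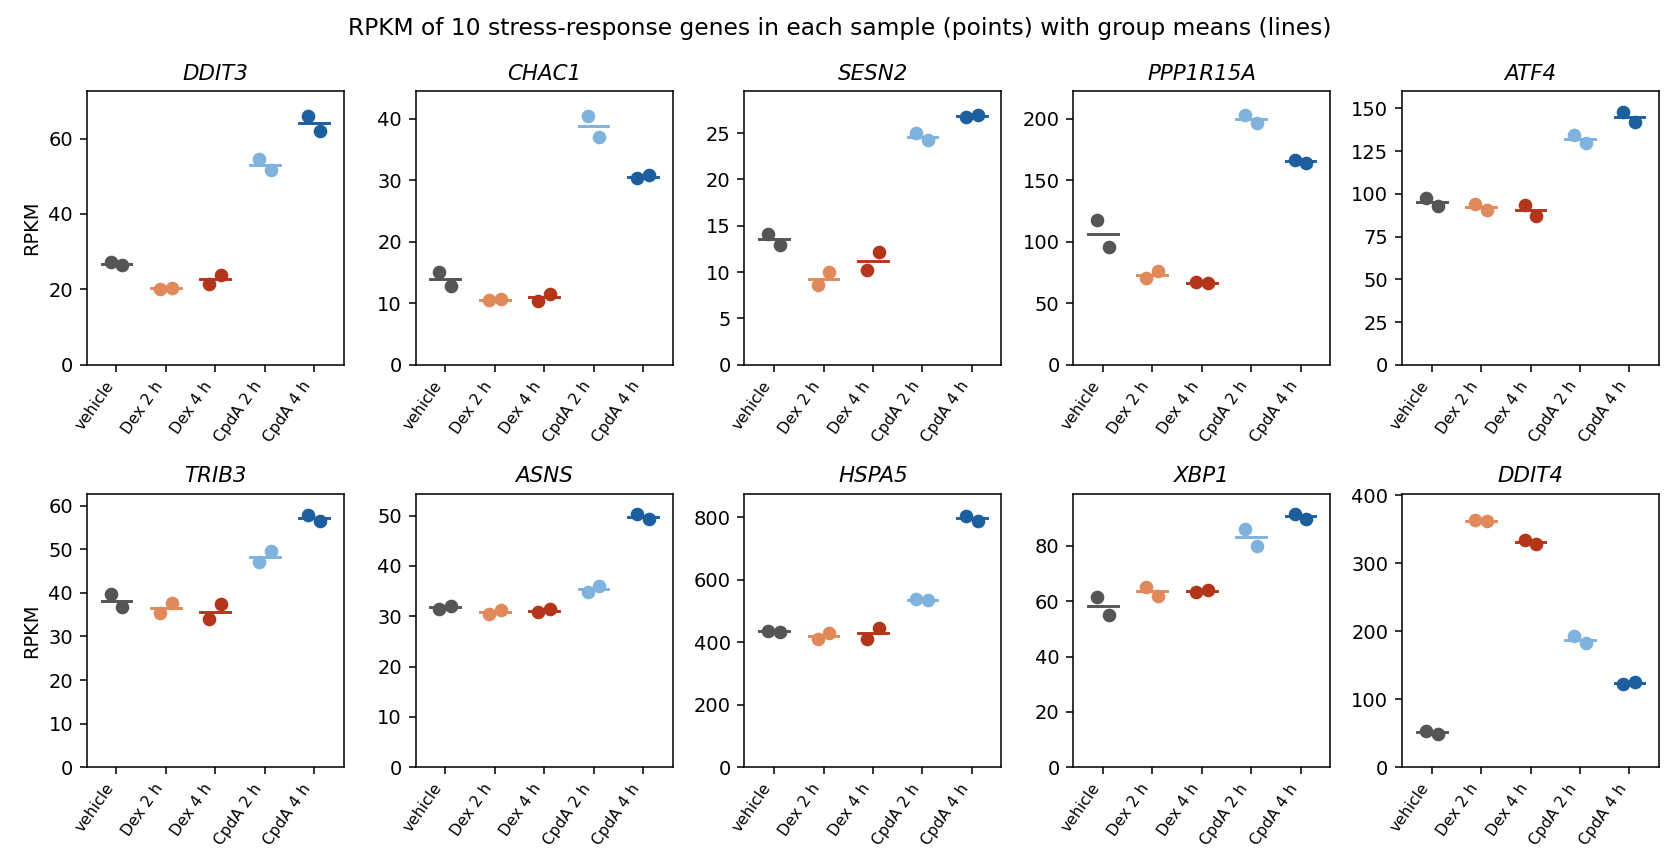
RPKM of the 10 genes (y axes, linear from 0) in each of the 10 samples (points), grouped by treatment along the x axes, with the group mean as a line. DDIT4 is highest with Dex (329 to 364 RPKM), and the other 9 genes are highest in the CpdA samples.

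ATF4 (GRCh37 chr22:39915700-39918688, plus strand), the central transcription factor of the integrated stress response, stood at 97.5 and 93.0 RPKM in the vehicle samples. It was at 93.8 and 90.9 RPKM after 2 h of Dex and at 93.7 and 87.1 RPKM after 4 h. CpdA gave 134.2 and 130 RPKM at 2 h and 147.8 and 142.3 RPKM at 4 h. The Dex values overlapped the vehicle values, and every CpdA value lay above both vehicle values. The log2 change with CpdA was 0.47 ± 0.05 (SE; adjusted p = 0.000786) at 2 h and 0.61 ± 0.05 (adjusted p = 7.98e-05) at 4 h. With Dex it was -0.04 (adjusted p = 0.691; 95% interval -0.154 to 0.065) and -0.08 (adjusted p = 0.29; -0.185 to 0.034).

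DDIT3 (chr12:57910371-57915520, minus strand) encodes CHOP, a transcription factor that ATF4 induces. Its levels were 27.4 and 26.3 RPKM with vehicle, 20.2 and 20.2 RPKM after 2 h of Dex, and 21.5 and 23.9 RPKM after 4 h. CpdA gave 54.6 and 51.6 RPKM at 2 h and 66.1 and 62.1 RPKM at 4 h. All 4 Dex values lay below, and all 4 CpdA values above, both vehicle values. The gene rose by 0.98 ± 0.06 on the log2 scale (adjusted p = 2.8e-05), or 1.97-fold, with CpdA at 2 h and by 1.25 ± 0.06 (adjusted p = 4.36e-06), or 2.38-fold, at 4 h. With Dex it fell by 0.41 ± 0.06 (adjusted p = 0.00178) at 2 h and by 0.25 ± 0.06 (adjusted p = 0.0128) at 4 h. The later Dex call was lost without vehicle replicate 1 (-0.22; adjusted p = 0.0728) and without Dex 4 h replicate 1 (-0.17; adjusted p = 0.0532). Exons of DDIT3 overlap those of MARS and MBD6 on the opposite strand, and the library kit is not stated to mark strand, so reads there cannot be told apart. MARS, at 52.6 to 65.6 RPKM, changed by 0.26 with CpdA at 4 h (adjusted p = 0.00156), and MBD6, at 6.4 to 7.8 RPKM, by -0.01 (adjusted p = 0.91). Their part in the DDIT3 values was not tested.

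XBP1 (chr22:29190543-29196585, minus strand) encodes the transcription factor of the IRE1 arm. It was measured at 61.5 and 55.1 RPKM with vehicle, 65.2 and 62.0 RPKM with Dex at 2 h and 63.5 and 64.1 RPKM with Dex at 4 h. The CpdA samples held 86.3 and 80.1 RPKM at 2 h and 91.4 and 89.9 RPKM at 4 h. Every treated value was above both vehicle values, and the CpdA values were above the Dex values. The rise with CpdA was 0.51 ± 0.06 (adjusted p = 0.00134) at 2 h and 0.64 ± 0.06 (adjusted p = 0.000151) at 4 h. The differences with Dex, 0.13 (adjusted p = 0.255) and 0.13 (adjusted p = 0.131), did not pass the test, although that at 4 h did without vehicle replicate 1 (0.21; adjusted p = 0.034).

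TRIB3 (chr20:343479-378203, plus strand) encodes a pseudokinase that CHOP and ATF4 induce and that restrains them. It was at 39.7 and 36.7 RPKM with vehicle, at 35.3 and 37.7 RPKM with Dex at 2 h and at 34.0 and 37.4 RPKM with Dex at 4 h. CpdA gave 47.0 and 49.5 RPKM at 2 h and 57.9 and 56.5 RPKM at 4 h. The Dex and vehicle values overlapped, whereas no CpdA value fell within the vehicle range. The gene rose by 0.34 ± 0.06 (adjusted p = 0.0133) with CpdA at 2 h and by 0.58 ± 0.06 (adjusted p = 0.00029) at 4 h. The rise at 2 h did not pass without vehicle replicate 2 (adjusted p = 0.0944), CpdA 2 h replicate 1 (adjusted p = 0.0652) or CpdA 2 h replicate 2 (adjusted p = 0.12). With Dex the log2 differences were -0.07 (adjusted p = 0.624) and -0.10 (adjusted p = 0.272).

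PPP1R15A (chr19:49375469-49379316, plus strand) encodes GADD34, which directs a phosphatase to eIF2 and so ends the response. Its vehicle values, 117.5 and 95.5 RPKM, were the farthest apart of the 10 genes. Dex gave 70.5 and 76.1 RPKM at 2 h and 66.9 and 66.1 RPKM at 4 h, and CpdA gave 202.7 and 196.8 RPKM at 2 h and 166.4 and 164.0 RPKM at 4 h. All Dex values were lower and all CpdA values higher than both vehicle values. The gene fell by 0.53 ± 0.08 (adjusted p = 0.0028) with Dex at 2 h and by 0.67 ± 0.08 (adjusted p = 0.000313) at 4 h. It rose by 0.91 ± 0.08 (adjusted p = 0.000403) with CpdA at 2 h and by 0.64 ± 0.08 (adjusted p = 0.000844) at 4 h. PPP1R15A kept all 4 calls under each of the 20 alternatives to the fit.

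ASNS (chr7:97480989-97501854, minus strand), asparagine synthetase, is an enzyme of amino acid supply and a direct ATF4 target. It was at 31.5 and 32.1 RPKM with vehicle, 30.5 and 31.2 RPKM with Dex at 2 h and 30.9 and 31.4 RPKM with Dex at 4 h. CpdA gave 34.9 and 36.0 RPKM at 2 h and 50.2 and 49.4 RPKM at 4 h. The Dex values lay just under both vehicle values, and the CpdA values above them, most so at 4 h. The rise with CpdA was 0.16 ± 0.04 (adjusted p = 0.0463) at 2 h and 0.65 ± 0.04 (adjusted p = 1.46e-05) at 4 h. The call at 2 h was the least certain of the 10, since it was lost under 10 of 20 alternatives, with adjusted p from 0.0237 to 0.301. With Dex the differences were -0.04 (adjusted p = 0.595) and -0.03 (adjusted p = 0.59).

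CHAC1 (chr15:41245160-41248710, plus strand) encodes a glutathione-degrading enzyme downstream of ATF4 and CHOP. It stood at 15.0 and 12.8 RPKM with vehicle, at 10.6 and 10.6 RPKM with Dex at 2 h and at 10.4 and 11.6 RPKM with Dex at 4 h. CpdA gave 40.5 and 37.1 RPKM at 2 h and 30.4 and 30.9 RPKM at 4 h. Dex values were below both vehicle values, and CpdA values were above them and higher at 2 h than at 4 h. The increase with CpdA was 1.48 ± 0.08 (adjusted p = 1.54e-05), or 2.78-fold, at 2 h and 1.14 ± 0.08 (adjusted p = 4.71e-05), or 2.20-fold, at 4 h. With Dex CHAC1 fell by 0.38 ± 0.08 (adjusted p = 0.0152) and 0.34 ± 0.08 (adjusted p = 0.013). Without vehicle replicate 1 neither Dex call passed, with -0.27 (adjusted p = 0.0617) at 2 h and -0.22 (adjusted p = 0.0764) at 4 h. The 2 h call was also lost without Dex 2 h replicate 1 (adjusted p = 0.0938) or replicate 2 (adjusted p = 0.0788), and the 4 h call without Dex 4 h replicate 1 (adjusted p = 0.0678).

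HSPA5 (chr9:127997132-128003661, minus strand) encodes BiP, the main ER chaperone of the HSP70 family. It had the highest level of the 10 genes in every sample, at 437.7 and 432.7 RPKM with vehicle, 410.6 and 428.4 RPKM with Dex at 2 h and 410.9 and 445.6 RPKM with Dex at 4 h. CpdA gave 537.7 and 534.0 RPKM at 2 h and 805.5 and 788.3 RPKM at 4 h. The Dex values at 4 h spanned the vehicle values, while the CpdA values were higher at each time. HSPA5 rose by 0.30 ± 0.05 (adjusted p = 0.00878) at 2 h and by 0.87 ± 0.05 (adjusted p = 1.4e-05), or 1.83-fold, at 4 h. The 2 h call did not hold without vehicle replicate 2 (adjusted p = 0.0619), CpdA 2 h replicate 1 (adjusted p = 0.0932) or CpdA 2 h replicate 2 (adjusted p = 0.0789). With Dex the differences were -0.05 (adjusted p = 0.626) and -0.02 (adjusted p = 0.76).

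SESN2 (chr1:28586029-28609002, plus strand) encodes sestrin 2, a leucine sensor that restrains the growth kinase mTORC1. It was at 14.2 and 13 RPKM with vehicle, 8.59 and 9.97 RPKM with Dex at 2 h and 10.2 and 12.2 RPKM with Dex at 4 h. CpdA gave 25.0 and 24.2 RPKM at 2 h and 26.8 and 26.9 RPKM at 4 h. The groups did not overlap, with Dex below and CpdA above vehicle. SESN2 rose by 0.86 ± 0.09 (adjusted p = 0.00102) with CpdA at 2 h and by 0.98 ± 0.09 (adjusted p = 0.000177) at 4 h. It fell by 0.55 ± 0.09 (adjusted p = 0.00467) with Dex at 2 h, while the difference at 4 h, -0.28 ± 0.09, missed the threshold (adjusted p = 0.0511). Leaving out Dex 4 h replicate 2, Dex 2 h replicate 1 or Dex 2 h replicate 2 moved that value past the threshold (adjusted p = 0.00759, 0.0422 and 0.0421).

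DDIT4 (chr10:74033678-74035794, plus strand) encodes REDD1, which also restrains mTORC1 and is induced by hypoxia, ATF4 and glucocorticoids. It was at 53.8 and 49.1 RPKM with vehicle, 363.6 and 361.6 RPKM with Dex at 2 h and 335.0 and 328.6 RPKM with Dex at 4 h. CpdA gave 193.0 and 182.2 RPKM at 2 h and 123.2 and 126.0 RPKM at 4 h. The order of the groups was therefore Dex at 2 h, Dex at 4 h, CpdA at 2 h, CpdA at 4 h and vehicle, with no overlap between neighbours. The log2 change was 2.82 ± 0.05 (adjusted p = 4.8e-09) with Dex at 2 h and 2.69 ± 0.05 (adjusted p = 3.57e-09) at 4 h. It was 1.87 ± 0.05 (adjusted p = 2.82e-07) with CpdA at 2 h, a 3.64-fold rise, and 1.28 ± 0.05 (adjusted p = 1.65e-06), or 2.42-fold, at 4 h.

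The share of the 10 genes that each ligand regulated is given beside that of all 12713 genes. The 10 genes were chosen with earlier results of these data known, so this is description and no test of the set. With Dex at 2 h 5 of the 10 genes were called, 1 higher and 4 lower, where 10.3% of all genes were called, 4.49% higher and 5.82% lower. With Dex at 4 h 4 of 10 were called, 1 higher and 3 lower, beside 27.4% of all genes, 9.26% higher and 18.2% lower. With CpdA all 10 were called higher at 2 h, where 1.89% of all genes were higher, 4.29% lower and 6.18% called in either direction. At 4 h all 10 were again higher, beside 6.76% of all genes higher, 13.8% lower and 20.5% called. The median log2 change of the 10 genes was 0.69 with CpdA at 2 h and 0.76 at 4 h, where the median of all genes was -0.02 and -0.04. With Dex it was -0.06 at 2 h and -0.09 at 4 h, beside -0.02 and -0.05 over all genes. Changes past 2-fold were seen in 2 genes with CpdA at 2 h (CHAC1 and DDIT4) and 3 at 4 h (DDIT3, CHAC1 and DDIT4), where 0.338% and 0.535% of all genes were higher past 2-fold. With Dex DDIT4 alone was past 2-fold, beside 1.34% of all genes at 2 h and 2.1% at 4 h. The 4 comparisons share the vehicle samples.

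**Figure D2:**
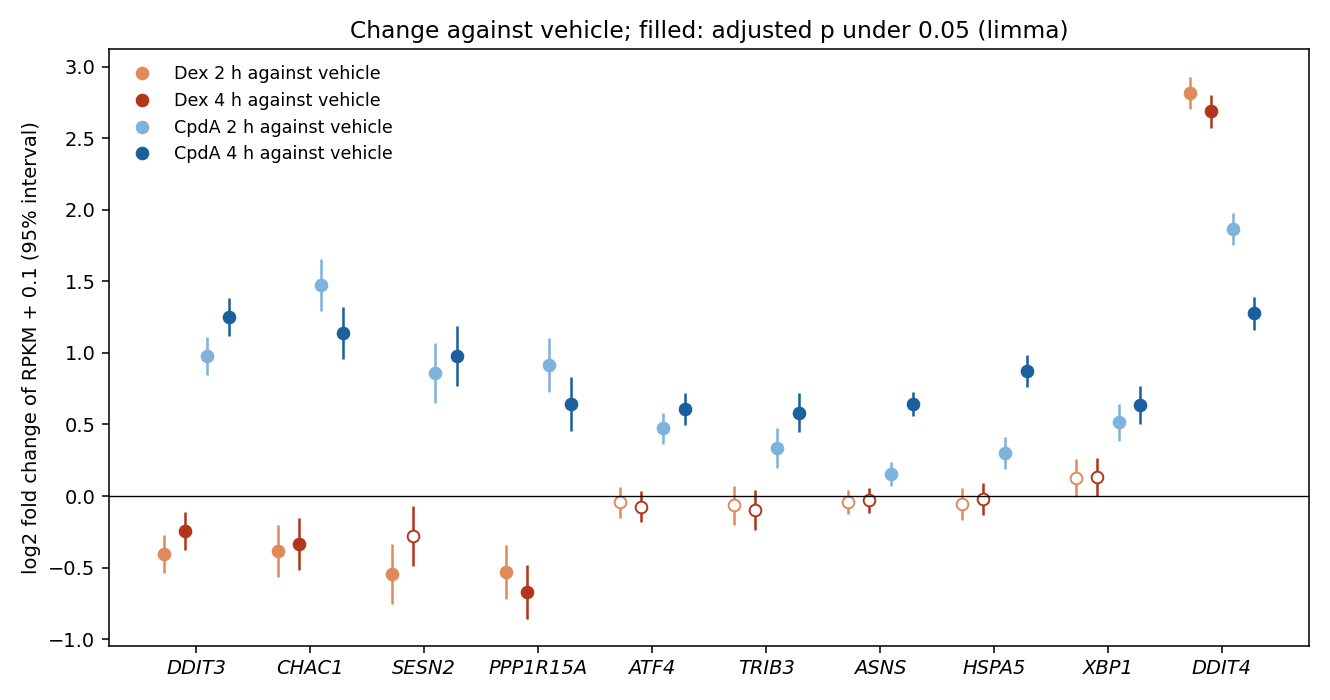
Log2 change of RPKM + 0.1 against vehicle (y axis) of the 10 genes (x axis) with each ligand at each time, with 95% intervals from limma as bars. Filled points have an adjusted p under 0.05. All CpdA points lie above 0, and of the Dex points DDIT4 stands near 2.8 and 2.7 while the others lie between -0.67 and 0.13.

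The ligands were compared directly, which does not use the vehicle samples as a reference. All 10 genes differed between Dex and CpdA at 2 h, where 13.7% of all genes did, and at 4 h, where 33.4% of all genes did. DDIT4 was higher with Dex, by 0.95 ± 0.05 at 2 h (adjusted p = 2.27e-06) and 1.41 ± 0.05 at 4 h (adjusted p = 9.86e-08), that is 2.66-fold at 4 h, where 7.53% and 15.4% of all genes were higher with Dex and 2.6% were higher past 2-fold at 4 h. The other 9 genes were lower with Dex at both times, beside 6.18% and 18% of all genes. At 2 h the 4 genes past 2-fold were CHAC1 (-1.86 ± 0.08), PPP1R15A (-1.45 ± 0.08), SESN2 (-1.40 ± 0.09) and DDIT3 (-1.39 ± 0.06), beside 0.944% of all genes lower past 2-fold. The same 4 were past 2-fold at 4 h, with DDIT3 at -1.5 ± 0.06, CHAC1 at -1.48 ± 0.08, PPP1R15A at -1.31 ± 0.08 and SESN2 at -1.26 ± 0.09, beside 1.75% of all genes. The smallest difference was that of ASNS at 2 h (-0.20 ± 0.04), which lost its call without Dex 2 h replicate 1 (adjusted p = 0.0712) or CpdA 2 h replicate 2 (adjusted p = 0.0867). No Dex value of any of the 9 genes reached a CpdA value at the same time. The share of all genes without such overlap was not counted, so with 2 samples per group this is description only.

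Between 2 h and 4 h of CpdA the chaperone HSPA5 and the enzyme ASNS went on rising while DDIT4 and CHAC1 came down. In all 6 of the 10 genes passed the test, 4 higher and 2 lower, where 12.4% of all genes did, 5.21% higher and 7.2% lower. HSPA5 rose by 0.57 ± 0.05 (adjusted p = 0.000488), ASNS by 0.49 ± 0.04 (adjusted p = 0.00029), DDIT3 by 0.27 ± 0.06 (adjusted p = 0.019) and TRIB3 by 0.25 ± 0.06 (adjusted p = 0.0317). DDIT4 fell by 0.59 ± 0.05 (adjusted p = 0.000488) and CHAC1 by 0.34 ± 0.08 (adjusted p = 0.0278). PPP1R15A, at -0.27 ± 0.08, missed the threshold (adjusted p = 0.0637), as did ATF4, SESN2 and XBP1 with values from 0.12 to 0.14. Without any single CpdA sample the count was 3, and 3 is also the count when the variances were not moderated. The vehicle samples are not part of this comparison. In those that the study's column names call 2 h and 4 h, CHAC1 was at 15.0 and 12.8 RPKM and DDIT4 at 53.8 and 49.1 RPKM. HSPA5 was at 437.7 and 432.7 RPKM there, and ASNS at 31.5 and 32.1 RPKM. How much of the CHAC1 fall would also occur in vehicle over time was not tested. From 2 h to 4 h of Dex limma called 0 of the 10 genes, where 13.6% of all genes were called (4.55% higher and 9.02% lower). Of these 10, however, 3 (DDIT3, SESN2 and DDIT4) had an unadjusted p under 0.05. Without Dex 4 h replicate 1 the count was 2.

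**Figure D3:**
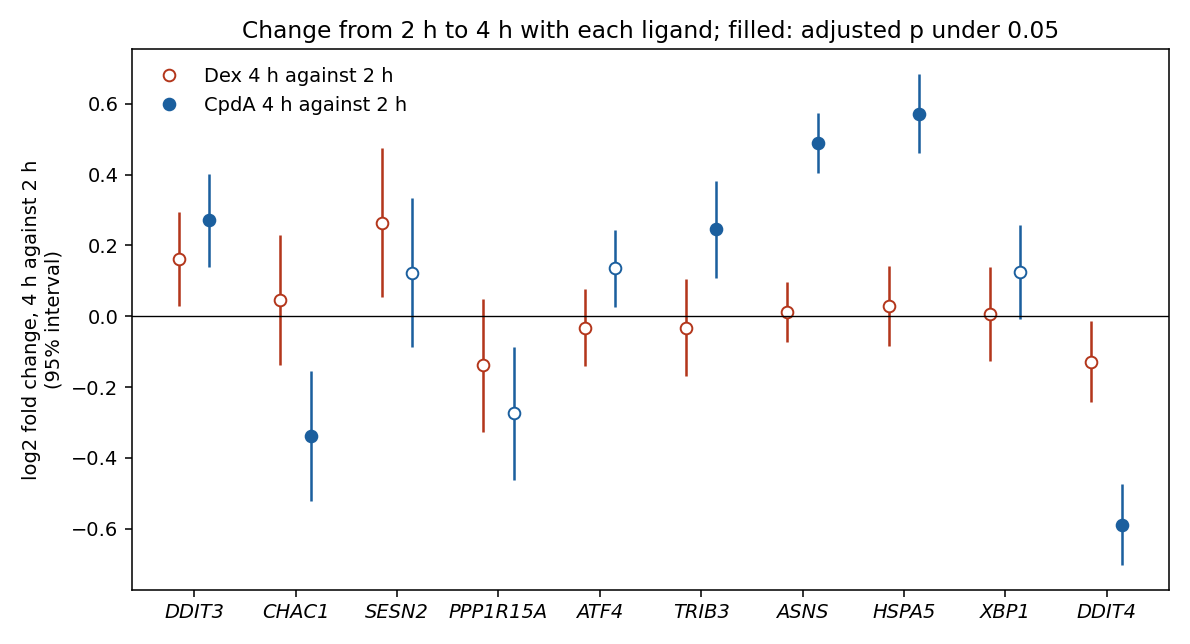
Log2 change from 2 h to 4 h (y axis) of the 10 genes (x axis) with Dex and with CpdA, with 95% intervals from limma. Filled points have an adjusted p under 0.05, which 6 CpdA points and no Dex point reached.

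The difference between the time courses was tested by itself, as the change from 2 h to 4 h with Dex minus that with CpdA. It passed for 3 of the 10 genes, 1 higher and 2 lower, where 6.6% of all genes passed, 3.04% higher and 3.56% lower. HSPA5 (-0.54 ± 0.07; adjusted p = 0.00288) and ASNS (-0.48 ± 0.05; adjusted p = 0.0016) rose more with CpdA. DDIT4 fell more with CpdA (0.46 ± 0.07; adjusted p = 0.0071). For CHAC1 (0.38; adjusted p = 0.0889) and TRIB3 (-0.28; adjusted p = 0.0994) the test missed the threshold, but with fewer samples in the fit it passed in some cases. CHAC1 passed when only the groups compared were fitted (adjusted p = 0.0383) and without vehicle replicate 1 (adjusted p = 0.0385) or 2 (adjusted p = 0.0383), and TRIB3 without Dex 4 h replicate 2 (adjusted p = 0.024).

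The other genes of these pathways were read from 4 lists, of which 101 of 108 genes were tested. The lists too were chosen with earlier results of these data known, so the shares of all genes beside them are description only. STC2, ALDH1L2, DDIT4L, SESN3 and DEPTOR were too low to test, and SELS and CASTOR1 are not listed under these symbols. CpdA called 16 of the 101 genes at 2 h (14 higher and 2 lower) and 59 at 4 h (55 higher and 4 lower), beside 6.18% of all genes called at 2 h (1.89% higher and 4.29% lower) and 20.5% at 4 h (6.76% higher and 13.8% lower). Dex called 9 at 2 h (6 higher and 3 lower) and 27 at 4 h (11 higher and 16 lower), beside 10.3% and 27.4% of all genes, so that the Dex counts were near the share over all genes. The count for Dex at 2 h rested on single samples, since it was 4 without Dex 2 h replicate 1 and 16 without either Dex 4 h sample. For Dex at 4 h it was 47 without Dex 4 h replicate 2, and for CpdA at 2 h it was 8 and 9 without CpdA 2 h replicate 1 and 2.

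**Figure D4:**
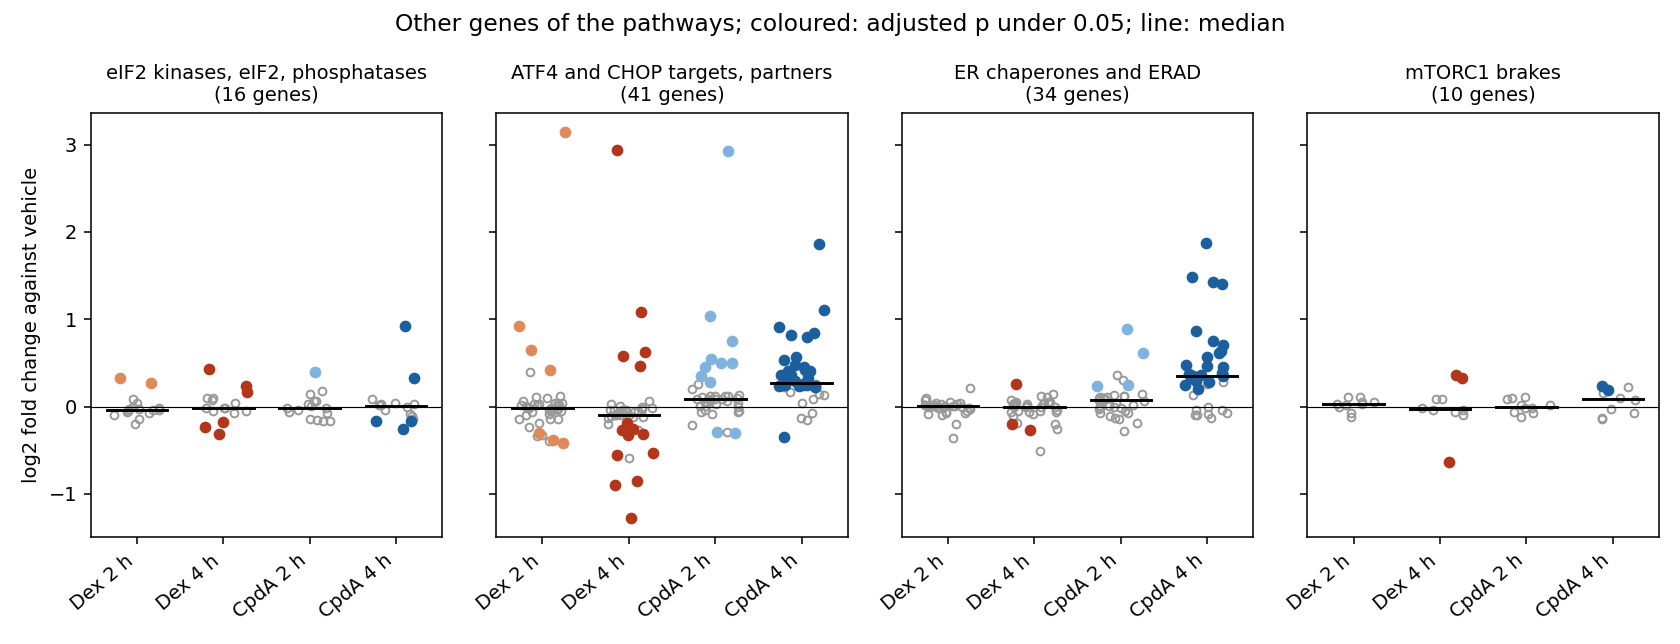
Log2 change against vehicle (y axis) of each tested gene of the 4 pathway lists (points), by ligand and time (x axes), with the median of each list as a line. Coloured points have an adjusted p under 0.05. With CpdA at 4 h the medians of the ATF4 and CHOP list and of the ER list are 0.27 and 0.35.

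Of 41 tested targets and partners of ATF4 and CHOP, CpdA raised 9 and lowered 2 at 2 h, and raised 28 and lowered 1 at 4 h. Over all genes it raised 1.89% and lowered 4.29% at 2 h, and raised 6.76% and lowered 13.8% at 4 h. The median change of the list was 0.08 at 2 h and 0.27 at 4 h, beside -0.02 and -0.04 over all genes. ATF3, a stress-induced transcription factor, was more than 2-fold apart between the vehicle samples, at 5.58 RPKM in replicate 2 and 13 RPKM in replicate 1. It reached 67.5 and 64.2 RPKM with CpdA at 2 h and 31.6 and 31.1 RPKM at 4 h, a rise of 2.93 ± 0.29 (adjusted p = 0.000674) and 1.86 ± 0.29 (adjusted p = 0.00224). With Dex at 2 h ATF3 was at 8.01 and 8.31 RPKM, within the vehicle range, and at 4 h, with 3.37 and 3.56 RPKM, it was lower (-1.28 ± 0.29; adjusted p = 0.0102). These 3 calls held without either vehicle sample, with ATF3 at 3.54, 2.47 and -0.67 without replicate 1 and at 2.33, 1.26 and -1.88 without replicate 2. GADD45A, a growth arrest gene, rose with CpdA at 2 h by 1.03 (adjusted p = 0.00556), from 81.0 and 52.2 RPKM to 132.9 and 133.9 RPKM, and with Dex at 2 h by 0.92 (adjusted p = 0.00437). GDF15, a stress-induced cytokine, changed by 0.75 (adjusted p = 0.0023) with CpdA at 2 h, -0.42 (adjusted p = 0.0214) with Dex at 2 h and -0.85 (adjusted p = 0.000164) with Dex at 4 h. Its call with Dex at 2 h was lost without vehicle replicate 1 (adjusted p = 0.068), Dex 2 h replicate 1 (adjusted p = 0.162) or Dex 2 h replicate 2 (adjusted p = 0.0616).

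Within this list, functions that were grouped after the values were seen give the following counts with CpdA at 4 h, where 6.76% of all genes rose. Of 11 aminoacyl-tRNA synthetases 7 rose and none fell, with changes from 0.04 to 0.41. Of 7 amino acid transporters 6 rose, from 0.23 to 1.11, and of 8 enzymes of serine, one-carbon and other amino acid metabolism 7 rose, with changes from 0.13 to 0.91. At 2 h of CpdA limma called 0, 0 and 2 genes of these groups higher, with 1, 1 and 4 genes at an unadjusted p under 0.05. SLC7A11, the cystine transporter, was at 12.3 and 16.8 RPKM with vehicle, 11.1 and 12.4 RPKM with CpdA at 2 h and 30.6 and 31.8 RPKM at 4 h, a rise of 1.11 ± 0.19 (adjusted p = 0.00396) at 4 h. CTH, which makes cysteine, rose by 0.91 ± 0.09 (adjusted p = 0.000248). The exception to the direction was TNFRSF10B, the death receptor DR5 that CHOP is known to induce. TNFRSF10B fell from 50.1 and 44.2 RPKM to 37.1 and 36.9 RPKM with CpdA at 4 h (-0.35; adjusted p = 0.00362) and to 24.5 and 26.0 RPKM with Dex at 4 h (-0.90; adjusted p = 5.21e-06). ATF5, a relative of ATF4, was also lower with CpdA at 2 h (-0.29), a call that was lost without any of 7 of the 10 samples, namely vehicle replicate 2, both Dex 2 h, both CpdA 2 h and both CpdA 4 h samples (adjusted p from 0.0809 to 0.22).

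With Dex the same list moved in both directions, with 4 genes higher and 3 lower at 2 h and 5 higher and 10 lower at 4 h. Over all genes 4.49% were higher and 5.82% lower with Dex at 2 h, and 9.26% higher and 18.2% lower at 4 h. CEBPB, a partner of ATF4 and CHOP, rose from 25.5 and 26.9 RPKM to 244.8 and 220.4 RPKM at 2 h (3.14 ± 0.06; adjusted p = 6.12e-09) and 206.6 and 197.8 RPKM at 4 h (2.94 ± 0.06; adjusted p = 6.75e-09). SLC38A2, an amino acid transporter, rose by 0.65 ± 0.06 (adjusted p = 0.000117) at 2 h and 1.08 ± 0.06 (adjusted p = 2.01e-06) at 4 h. JDP2, a repressor of AP-1 sites, rose by 0.63 ± 0.06 at 4 h (adjusted p = 7.3e-05), and SLC7A5, a leucine transporter, was lower at 2 h (-0.38), though not without Dex 2 h replicate 1 (adjusted p = 0.053). The CEBPB values with CpdA, 38.3 and 38.1 RPKM at 2 h, were above vehicle by 0.54 (adjusted p = 0.00143). JDP2 was not particular to Dex, since it also rose by 0.50 with CpdA at 2 h (adjusted p = 0.00205). At 4 h JDP2 was at 8.54 and 8.25 RPKM with CpdA and 7.77 and 7.21 RPKM with Dex, beside 4.86 and 4.75 RPKM with vehicle.

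ER chaperones and ERAD genes rose with CpdA mostly between 2 h and 4 h. Of 34 tested genes 4 rose and none fell at 2 h, and 23 rose and none fell at 4 h, with a median change of 0.07 and 0.35. Over all genes 1.89% rose and 4.29% fell at 2 h, and 6.76% rose and 13.8% fell at 4 h. From 2 h to 4 h 21 rose and 1 fell, and the test of the difference between the ligands' time courses passed in 17 genes, each of which rose more or fell less with CpdA. Over all genes 5.21% rose and 7.2% fell from 2 h to 4 h of CpdA, and 3.56% passed the test of the time courses in the direction of those 17 genes. HERPUD1, which recruits the degradation complex at the ER membrane, went from 63.3 and 60.2 RPKM with vehicle to 117.9 and 111.4 RPKM at 2 h and 232.5 and 219.1 RPKM at 4 h, a log2 change of 0.89 and 1.87. DNAJB9, a co-chaperone of HSPA5, went from 25.6 and 23.9 RPKM to 38.4 and 37.7 RPKM and then 71.3 and 67.0 RPKM, with log2 changes of 0.62 and 1.48. SDF2L1, another component of the ER chaperone complex, stood at 24.8 and 25.9 RPKM with vehicle and 71.4 and 65.8 RPKM with CpdA at 4 h, a log2 change of 1.43. MANF, a secreted ER stress factor, rose by 0.25 at 2 h, a call lost without vehicle replicate 2 or either CpdA 2 h sample (adjusted p from 0.0711 to 0.155). Every CpdA value of these 4 genes was above both vehicle values, which is description only, since they were named for the size of their rise. With Dex limma gave 0 calls at 2 h (0 genes at an unadjusted p under 0.05), and 1 gene rose (HERPUD1, 0.26) and 2 fell (EDEM1, -0.27, and MBTPS2, -0.20) at 4 h. Of all genes 10.3% were called with Dex at 2 h, and 9.26% were higher and 18.2% lower at 4 h. The EDEM1 call was lost without vehicle replicate 1 (adjusted p = 0.0917) and that of MBTPS2 without any sample other than vehicle replicate 2 and Dex 4 h replicate 2 (adjusted p from 0.0509 to 0.147). In the RefSeq windows the ER stress response element was present in 5 of 32 genes of this list that had a window, namely HSP90B1, CALR, CANX, CRELD2 and SERP1, and TGATGNAA in 9 of 33 of the ATF4 and CHOP list.

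Upstream of ATF4 the kinase gene EIF2AK3 rose with both ligands. Of 16 eIF2 kinases, eIF2 and eIF2B subunits and phosphatase subunits, 1 was called with CpdA at 2 h, 5 with CpdA at 4 h, 2 with Dex at 2 h and 6 with Dex at 4 h. The share called over all genes was 6.18%, 20.5%, 10.3% and 27.4% in the same order, so that both counts at 2 h were near it. EIF2AK3, which encodes PERK, was called higher in all 4 comparisons. It was at 8.10 and 7.33 RPKM with vehicle, 9.75 and 9.63 RPKM with Dex at 2 h and 9.74 and 11.2 RPKM with Dex at 4 h. CpdA gave 9.84 and 10.5 RPKM at 2 h and 14.6 and 14.8 RPKM at 4 h, all above vehicle, for a rise of 0.40 ± 0.07 (adjusted p = 0.0164) and 0.92 ± 0.07 (adjusted p = 8.24e-05). With Dex EIF2AK3 rose by 0.33 ± 0.07 (adjusted p = 0.0226) and 0.43 ± 0.07 (adjusted p = 0.00234). The EIF2AK3 calls at 2 h were lost without vehicle replicate 2 or either treated sample of the comparison (adjusted p from 0.0999 to 0.152 with Dex and 0.0727 to 0.14 with CpdA). The other called genes changed by 0.32 or less in size. With CpdA at 4 h EIF2S2 was higher (0.32) and PPP1CC (-0.25), EIF2B2 (-0.17) and EIF2B4 (-0.17) were lower. With Dex PPP1CB was higher at 2 h (0.27) and 4 h (0.24), and at 4 h EIF2B4 was higher (0.16) while EIF2AK2 (-0.31), PPP1R15B (-0.24) and EIF2B3 (-0.18) were lower. Of these, EIF2B2, EIF2B4 and EIF2AK2 each lost the call without any of 5 or more samples, the groups compared included, PPP1R15B (adjusted p = 0.0559) and EIF2B3 (adjusted p = 0.0565) without vehicle replicate 1, and PPP1CB at 2 h without Dex 2 h replicate 1 (adjusted p = 0.0644). Of 10 tested mTORC1 brakes and related genes, limma called 0 with CpdA at 2 h (1 at an unadjusted p under 0.05) and 2 at 4 h (RRAGC, 0.24, and AKT1S1, 0.19, which lost its call without CpdA 4 h replicate 1, adjusted p = 0.0549). With Dex it called 0 at 2 h (1 at an unadjusted p under 0.05) and 3 at 4 h (RRAGC, 0.36, SESN1, 0.33, and PRKAA2, -0.63). With 20.5% and 27.4% of all genes called at 4 h of CpdA and Dex, these counts were near the share over all genes.

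DDIT4 was set beside 3 known glucocorticoid targets. With CpdA at 2 h and 4 h DDIT4 changed by 1.87 and 1.28, TSC22D3 by 0.44 and 0.27, PER1 by 1.22 and 0.82, and FKBP5 by -0.10 and 0.28. With Dex at 2 h DDIT4 changed by 2.82, TSC22D3 by 5.06, PER1 by 4.40 and FKBP5 by 3.50. DDIT4 therefore had the smallest of these 4 changes with Dex at 2 h and the largest with CpdA at both times, as a description of these values without a test between genes. The genes whose pattern over the 10 samples was most like that of DDIT4, by the root mean square (RMS) difference of centred log2 values, were DUSP1 (0.33), CEBPD (0.34) and SGK1 (0.40). For comparison, the group means of DDIT4 span 2.82 on the log2 scale. DUSP1, a MAP kinase phosphatase, changed by 2.95 with Dex and 2.76 with CpdA at 2 h, CEBPD by 2.075 and 1.10, and SGK1 by 2.42 and 1.18. The ranking of DDIT4 given above holds only among the 4 genes compared there. DUSP1 rose more than DDIT4 with CpdA at 2 h, and CEBPD and SGK1 rose less than DDIT4 with Dex at 2 h.

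Of the remaining members with a wide span, only DDIT3 and SESN2 had another member among their 3 nearest genes. DDIT3 and SESN2 were each the gene nearest to the other among all 12713 genes, with an RMS difference of 0.11 over group mean spans of 1.66 and 1.53. AREG, an EGF receptor ligand, followed for both (0.12 and 0.14), then MXD1 (0.17) for DDIT3 and CXCL2 (0.20) for SESN2. CHAC1, with a span of 1.86, was nearest to AVPI1 (0.12), BRE-AS1 (0.17) and AREG (0.20). BRE-AS1 was low, at 0.12 to 0.71 RPKM, and reached the filter of 0.5 RPKM in CpdA samples only. Its likeness to CHAC1 therefore depends in part on the filter and the pseudocount. AREG was at 1.23 to 3.87 RPKM. PPP1R15A, with a span of 1.58, was nearest to MAP3K14 (0.10), MAFK (0.12) and GDF15 (0.13). For ATF4, TRIB3, ASNS, HSPA5 and XBP1 the group means spanned under 1 on the log2 scale, and no like genes were named.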

How the data were processed

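RNA was sequenced as 50-base single-end reads from 10 samples. The authors aligned reads with TopHat 2.0.13 and deposited RPKM per gene symbol from Partek Genomics Suite 6.6 at default settings, with 20668 symbols in each sample. The labels name hg19 without tying it to a step, and how transcripts were combined into symbols is not given in the sources used here. The library kit is not stated to be stranded. ChIP data of the series were not analysed here. Groups were taken from the labels.

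Genes that reached 0.5 RPKM in 2 or more samples were tested (12713). Their log2(RPKM + 0.1) values in all 10 samples went into 1 linear model with the 5 groups as terms, fitted with limma 3.58.1 in R 4.3.3 (eBayes with abundance trend). P-values were adjusted by Benjamini-Hochberg over the 12713 genes. Values were not normalized further. P-values rest on the spread between the 2 replicates of each group, pooled over the 5 groups and moderated over genes. The vehicle pair, which may be of different times, is part of that pool. No replicates looked like copies of each other. The fit was tested on simulated data. Mapped reads were estimated from the RPKM that 1 read is worth in 2313 single-transcript genes, so they are estimates.

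The 10 genes and the pathway lists were chosen with earlier results of these data known. All 10 genes were named, with at most 3 called genes per direction, list and vehicle comparison, those of the largest change, the 3 nearest genes of each member whose group means span at least 1, and TSC22D3, FKBP5 and PER1. MARS and MBD6 were named for their overlap with DDIT3. DUSP1, CEBPD, SGK1, GDF15, CTH, GADD45A, CEBPB and JDP2 were also given outside the comparison that named them. Gene coordinates are from GENCODE lifted to GRCh37, and promoter windows from RefSeq GRCh38.p14. Alternatives were the pseudocount, the filter, quantile or median scaling, the abundance trend, the moderation, the groups fitted, a replicate block and leaving out each sample.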

Additional observations from a re-analysis of the deposited data

Results flagged for a closer look

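For 3 of the 10 genes the difference between Dex and CpdA was not the same at 2 h and at 4 h, by the limma test of that change itself. For ASNS the difference, Dex minus CpdA, changed by -0.48 on the log2 scale (adjusted p = 0.0016), since ASNS rose from 2 h to 4 h of CpdA and not with Dex. For HSPA5 it changed by -0.54 (adjusted p = 0.00288), in the same direction. For DDIT4 it changed by 0.46 (adjusted p = 0.0071), since DDIT4 fell from 2 h to 4 h of CpdA. The 3 changes passed the test under each of the 20 alternatives that were run.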

How the results depend on the processing

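All 10 genes were called with CpdA at 4 h and between Dex and CpdA at 4 h under each alternative. The weak points were the Dex calls and the early CpdA calls of small size. Without moderation of the variance, the members called were 3 (in place of 5) with Dex at 2 h, 2 (of 4) with Dex at 4 h and 3 (of 6) from 2 h to 4 h of CpdA, and the pathway genes called were 5 (of 9) with Dex at 2 h and 10 (of 16) with CpdA at 2 h. Fitting only the groups compared left 2 members and 13 pathway genes (of 27) with Dex at 4 h. Median scaling gave 2 members from 2 h to 4 h of Dex (in place of 0) and turned the uncalled Dex 4 h values of ASNS and HSPA5 to 0.039 and 0.045, and HSPA5 ran from -0.083 to 0.034 when 1 sample was left out, the latter without Dex 4 h replicate 1. Leaving out 1 sample at a time, the pathway genes called ran from 4 to 16 with Dex at 2 h, 21 to 47 with Dex at 4 h, 8 to 23 with CpdA at 2 h and 47 to 69 with CpdA at 4 h. The members called ran from 2 to 5 with Dex at 4 h, 7 to 10 with CpdA at 2 h, 0 to 2 from 2 h to 4 h of Dex and 3 to 7 from 2 h to 4 h of CpdA. The cause was not tested for any of these changes. Of 1200 values of single members under the alternatives, 1156 kept direction and call, 33 lost the call, 8 gained it and 3 changed sign.

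Scaling moved the split of all calls: with CpdA at 4 h 33% of calls were higher in RPKM as deposited, 46.8% after quantile normalization and 55.8% after median scaling, and with Dex at 4 h 33.8%, 44.8% and 49.9%. With CpdA at 2 h the shares were 30.5%, 39.5% and 44.6%, from 2 h to 4 h of Dex 33.5%, 47.7% and 53.3%, and from 2 h to 4 h of CpdA 42%, 49.5% and 54.6%. Same-numbered replicates were not treated as paired, and the labels do not say whether they were. The correlation of their deviations ran from -0.057 to 0.198 and was over 0.1 in 3 of 10 pairs, which cannot settle this. With the replicate number as a block, 5, 4, 10 and 10 members were called with Dex at 2 h and 4 h and CpdA at 2 h and 4 h, and 13, 30, 16 and 62 pathway genes. With vehicle samples that the study's column names assign to 2 h and 4 h, a change over time in vehicle cannot be told apart from replicate spread.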
